A study of Mus musculus with 8 samples.

Results

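Agilent arrays carry, beside probes for annotated genes, probes whose only systematic name is a stretch of genome, written as a chromosome, a start and an end and in most cases followed by the letter F or R. On this array design such probes stand for long intergenic noncoding RNAs, and they were followed here in livers with and without Btg2. They were chosen by that name, not by any measured value, and numbered 16194 of the 55681 distinct non-control probes. They stood for 3543 regions of mouse genome build mm9, or 4610 when the letters F and R are kept apart. Of the 16194, 4647 (28.7%) passed the scanner software's background test on both duplicates in 1 group or more and entered the tests, from 2374 of the 4610 regions. The letter was F for 2318 regions, R for 2289 and missing for 3. No source used here says what it stands for. The files hold the coordinates alone, so neither the intergenic position nor the lack of a coding sequence was checked, and no region was assigned to a gene.

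Long intergenic noncoding RNAs are transcripts that lie between protein-coding genes and have no known open reading frame of their own. They are known as a class for low levels and for expression limited to particular tissues or stages, and some are precursors of small RNAs or parts of nuclear bodies. Btg2, also called TIS21 or PC3, belongs to the BTG/TOB family of growth-restraining proteins, which bind the CCR4-NOT complex that shortens the poly(A) tails of mRNAs.

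The 4 liver RNA samples came from C57BL/6J mice, wild type or TIS21 knockout at each of 2 stages. The adult samples were livers of males aged 10 weeks that had gone without food for 20 h, and both genotypes were fasted alike. The fetal samples were pools of livers of embryonic day 13.5, each from more than 3 fetuses of a litter. Each RNA sample was hybridised to 2 arrays, giving 4 groups of 2 arrays. These are technical duplicates: every p-value here measures array error between 4 RNA samples, not the spread between animals. In a whole liver, fewer cells of a type and less RNA per cell cannot be told apart. All 8 arrays lay on 1 slide, and each group had a column of the slide to itself, so slide column and group cannot be told apart.

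Levels are given as log2 processed signal minus the array's 75th percentile, so that 0 is the 75th percentile of that array, and differences are on the same log2 scale with the standard error (SE) of the limma fit. A call needed an adjusted p under 0.05 over all 28819 probes tested and a change of at least 2-fold. That percentile lay at a signal of 132 to 171 in the adult samples and of 278 to 334 in the fetal pools. The duplicate arrays of a group differed with an SD of 0.58 (wild-type adult), 0.44 (knockout adult), 0.45 (wild-type fetal) and 0.38 (knockout fetal) over the coordinate-named probes tested, against 0.45, 0.32, 0.30 and 0.25 over the other probes. Btg2 itself was called lower in the knockout at both stages, by at least 7.62-fold in the adult and at least 98.1-fold in the fetal sample. Liver markers were where the labels put them: all 8 hepatocyte genes were called higher in wild-type adult than fetal liver, and all 4 hepatoblast and all 10 erythroid genes lower.

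The regions ran from 62 to 7128487 bases, with a median of 10676. Regions with a tested probe had a median of 12127 bases and those without one 8632. A region held at most 10 probes. At least 2 tested probes were present in 1134 regions, at least 3 in 628, and at least 5 in 144. Many names describe the same ground: 2104 regions overlapped another with the same letter, up to 12 in one stretch, and merging overlaps left 3365 loci, 1881 of them with a tested probe. Probes of overlapping regions are therefore not separate observations. By chromosome, the share of coordinate-named probes that was tested ran from 21.9% (chromosome 13) to 36.1% (chromosome 17).

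Coordinate-named probes were detected less often than others. Their tested share of 28.7% compares with 51.8% of all probes, 71.1% of the probes named by an mRNA (NM) accession and 46.5% of those named by a noncoding RNA (NR) accession. In the fetal pools 4152 (wild type) and 3863 (knockout) were well above background on both arrays, in the adult livers 2579 and 2637. All 4 groups detected 2149 of them (13.3%), beside 33.9% of all probes. Both fetal groups and no adult group detected 1147 (7.08%), beside 5208 of all probes (9.35%). Both adult groups and no fetal group detected 127 (0.784%), beside 643 (1.15%). These shares take in probes that no group detected, 71.3% of the coordinate-named probes and 48.2% of all probes. Among probes tested, the fetal pattern covered 1147 of 4647 coordinate-named ones and 5208 of 28819 of all kinds. The adult pattern covered 127 and 643 of these. Over all probes the fetal groups also detected more, 48.9% (wild type) and 47.0% (knockout), against 36.8% and 38.1% in the adult groups. The first wild-type fetal array stood apart: it had 42.8% of the coordinate-named probes well above background, its duplicate 26.9%. The knockout fetal arrays had 27.5% and 26.2%, the wild-type adult arrays 17.9% and 21.4%, and the knockout adult arrays 21.1% and 17.1%. Every array had a higher share over all probes, from 38.5% to 61.1%. Some coordinate-named probes were detected in 1 group alone: 439 (2.71%) in the wild-type fetal and 173 (1.07%) in the knockout fetal pool. In the knockout adult alone there were 71 (0.438%) and in the wild-type adult alone 67 (0.414%). Over all probes these shares were, in the same order, 2.36%, 0.706%, 0.451% and 0.284%. They, too, take in probes that no group detected. At the edge of the rule, the 209 probes detected on exactly both arrays of 1 group and nowhere else had a median highest signal of 27.9, and the 2452 detected on a single array, which were left out, one of 24.3.

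In the adult livers, the comparison asks which of these regions change when Btg2 is absent. Of the coordinate-named probes tested, 203 (4.37%) were called lower in the knockout and 59 (1.27%) higher. Over all probes tested 2.99% were called lower and 3.92% higher (6.91% in all). The coordinate-named probes had a median difference of -0.19, beside -0.12 for all probes. The lower calls came from 171 regions (166 loci) and the higher ones from 53 regions (48 loci), and no region had calls both ways. At this scaling 19 of the 20 chromosomes had more lower than higher calls. The tally by chromosome was not made for all probes or under the other scalings given below. A limit added after the data were seen kept only calls whose brighter group was well above background on both arrays. It left 122 coordinate-named probes lower and 32 higher. Over all 28819 probes it left 600 lower (2.08%) and 891 higher (3.09%). Where both groups were measured, 66 of 2328 coordinate-named probes were lower (2.84%) and 11 higher (0.473%), against 2.14% and 2.68% of 19779 probes of all kinds. The balance of the calls depends on how arrays are brought to one scale: median scaling gave 169 lower and 130 higher, scaling on probes detected everywhere 137 and 101, and quantile normalization 183 and 134. Over all 28819 probes the same settings gave 673 lower and 1721 higher, 570 and 1471, and 740 and 1616. These choices move the median of all probes from -0.12 to 0.08, 0.02 and 0.00. Background correction and the filter moved the shares too. With normexp background correction, described below, 0.301% of coordinate-named probes were called lower, beside 0.684% of all probes. With no detection filter these shares were 1.13% and 1.45%. Higher calls were 0.172% beside 1.22%, and 0.395% beside 1.95%. In both settings coordinate-named probes were thus called lower less often than all probes. Without the first wild-type adult array the counts were 370 and 111.

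Among the regions' brightest probes measured in both adult groups, the deepest fall was in chr19:5771425-5848475 (F), a region of 77051 bases. Its brightest probe read 6.51 and 6.52 on the wild-type adult arrays and 3.55 and 3.51 on the knockout arrays, a difference of -2.98 (SE 0.05, adjusted p 9.1e-08), or 7.92-fold. In the fetal pools the same probe read 1.00 and 0.93 in wild type and 1.21 and 1.06 in the knockout. The adult levels of the 2 genotypes were thus far apart and the fetal ones close together, all of the latter below either adult sample. The region holds 10 probes, of which 9 were tested and 4 called lower, and its probes did not move as one: their adult differences ran from -2.98 to 0.60. A second probe fell by 2.42, from 2.02 and 2.12 to -0.28 and -0.42.

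Lower levels in the adult knockout were also measured in chr13:65610375-65634500 (F), whose only probe read 0.04 and 0.04 in wild type and -1.91 and -1.52 in the knockout, a difference of -1.75 (SE 0.32, adjusted p 0.0035). Its fetal arrays covered -1.48 and -1.57 in wild type and -1.23 and -2.32 in the knockout, so the fetal groups overlapped. In chr4:86267450-86277650 (F) the brightest of 4 tested probes went from -0.61 and -0.49 to -2.28 and -2.07, a difference of -1.62 (SE 0.18, adjusted p 0.00027), and another probe of the region was called lower as well. The probe for chr11:95561419-95574068 (R) went from 1.21 and 1.42 to -0.35 and -0.10 (-1.54), but the region's other tested probe differed by 0.41 and was not called. The other 4 named falls were smaller. chr6:47595238-47601893 (F) read 0.30 and -0.44 in wild type and -1.82 and -1.11 in the knockout (-1.40), and chrX:34360500-34388500 (F) -0.71 and -0.57 against -1.99 and -1.86 (-1.29). chr14:21460230-21461364 (F) went from 1.15 and 1.19 to -0.07 and -0.15 (-1.28), with 2 of its 3 tested probes called. chr6:146493273-146493932 (R) went from 0.43 and 0.28 to -0.81 and -1.05 (-1.28). In all 8 named falls the duplicate arrays of the 2 adult RNA samples did not overlap. The 8 were chosen as the largest called falls, so this adds no support. The call for chr6:47595238-47601893 (F) was lost when the first wild-type or the first knockout adult array was left out.

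Among the regions measured in both adult groups, 4 had a brightest probe that was called higher. In chr8:19682258-19700836 (F) it read -1.71 and -1.39 in wild type and 0.29 and 0.22 in the knockout, a difference of 1.80 (SE 0.16, adjusted p 9.9e-05). The other 2 tested probes of that region differed by 0.11 and -0.14 and were not called, so the rise rests on 1 probe of 3. chr4:44181997-44249172 (F) went from -1.54 and -1.52 to 0.24 and 0.23 (1.76), again with a second probe that did not pass, at 0.12. The bright probe of chr9:78104935-78116974 (F) rose from 3.83 and 4.06 to 5.19 and 5.31, by 1.31 (SE 0.17, adjusted p 0.00054), while all 4 fetal arrays lay between -2.35 and -1.81. A probe of the overlapping chr9:78107225-78118850 (F), picked after its values were seen, read 0.89 and 0.77 and 3.00 and 3.09, a difference of 2.21 (SE 0.43, adjusted p 0.0043). The last, chr1:175653557-175671940 (R), went from 0.43 and 0.16 to 1.43 and 1.32 (1.08). That call was lost without the second wild-type adult array.

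Where neither duplicate of a group passed the background test, only a bound can be given. The dim side was then raised, array by array, to the dimmest signal that any detected probe had there, unless the probe itself was brighter. chr8:35143801-35144482 (F) was at least 19.9-fold higher in the knockout adult: its knockout arrays read 1.82 and 1.84, while the wild-type arrays, at -2.89 and -4.42, were not well above background. Both fetal pools detected this probe at similar levels, -0.78 and -0.73 in wild type and -0.47 and -0.51 in the knockout. It was the region's only tested probe of 3. The next bounds were at least 2.92-fold for chr5:15146475-15170100 (F), 2.03-fold for chr4:16144314-16144967 (F) and 1.63-fold for chr10:92547995-92556102 (F). In the other direction, at least 5.88-fold lower was found for chr12:55417150-55418002 (R), 3.92-fold for chr19:19005109-19008657 (R), 3.76-fold for chr1:34734249-34786649 (R) and 3.75-fold for chr19:54011403-54019143 (F). The first of these and the one on chromosome 1 rest on uneven duplicates: wild-type arrays of chr12:55417150-55418002 (R) read 1.13 and -1.39, those of chr1:34734249-34786649 (R) -1.90 and 0.28. Leaving out single arrays ended the calls for both, and that for chr4:16144314-16144967 (F). Normexp background correction with an offset of 50, which draws dim signals together, ended 12 of the 20 adult calls named so far; chr19:5771425-5848475 (F), chr11:95561419-95574068 (R), chr9:78104935-78116974 (F), chr8:35143801-35144482 (F), chr5:15146475-15170100 (F), chr12:55417150-55418002 (R), chr19:19005109-19008657 (R) and chr19:54011403-54019143 (F) kept theirs.

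Several probes of one region gave a second reading of the same ground. Of the 1134 regions with at least 2 tested probes, 155 had a call in the adult comparison, and in 131 of them it rested on 1 probe. Among the 628 regions with at least 3 tested probes, 19 had 2 or more called lower and 3 had 2 or more called higher. In chr7:4827340-4863315 (F), 4 of 5 tested probes were called lower, with differences of -1.67 to -0.97. Its brightest probe went from 6.56 and 6.51 in wild type to 5.46 and 5.46 in the knockout, -1.07 (SE 0.03, adjusted p 4.2e-07). No probe of these 22 regions was called in the fetal comparison, where only 1.6% of all probes tested were called. chr14:22267795-22319045 (R) had 5 of 6 called lower (-1.94 to -0.26), but its brightest probe was the one not called, at -0.26. In chr17:12941161-12944859, 3 of 5 were called lower (-1.69 to -0.38). The brightest probe there had adult processed signals of 34.4 and 35.3 in wild type and 16.0 and 11.9 in the knockout. All 3 tested probes were called lower in chr17:15100982-15115630 (R) (-2.64 to -1.44) and in chrX:47890565-47915775 (F) (-1.84 to -1.23). None of these 6 probes was well above background on both knockout adult arrays.

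On the rising side, chr1:175654606-175672031 (R), which overlaps the region of the same letter described above, had 3 of 5 probes called higher (0.94 to 1.62), and chr2:155269145-155303251 (F) had 2 of 4 (0.83 to 1.25). The third was chr5:15146475-15170100 (F), with 3 of 3 called higher. It was one of 3 neighbouring F regions on chromosome 5, between positions 14943275 and 15170100, that were all called higher and all dim on both wild-type arrays. Their 5 called probes were at least 1.35-fold to at least 2.92-fold higher in the knockout adult. This run was picked out after its values were seen. In the wild-type fetal pool all 5 probes were well above background on both arrays. In the knockout fetal pool none was, and their processed signals there ran from 7.37 to 28.2. None was called in the fetal knockout comparison, where all 5 differences were negative (-1.52 to -0.41). Those differences rest on signals near background, so they do not show an unchanged level.

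Other genes moved in the same adult samples, where 6.91% of all probes tested were called. All 11 macrophage and Kupffer cell markers tested were called higher in the knockout adult, and their summed scaled level was 62.3 to 65.8 on the wild-type and 363 to 371 on the knockout arrays. In the fetal pools none of the 11 was called, where only 1.6% of all probes tested were called. None of the 8 hepatocyte and 4 megakaryocyte markers was called, 1 of 4 hepatoblast markers was lower and 1 of 10 erythroid markers, Hbb-bh1, higher, though no adult array detected it. Of 7 cycling-cell markers tested, 3 were called higher. Intestinal epithelium markers went both ways, 3 higher and 2 lower of 5 tested, and their summed level was 248 to 250.3 in wild type against 95.6 to 96.8 in the knockout. Fabp2 alone made up 231 to 233 of the first and 88.0 to 88.8 of the second sum; Lgals4 was also lower, and Vil1, Krt20 and Muc13, dim on both wild-type arrays, were higher. The part of these cell types in the changes of coordinate-named probes was not tested.

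Named long noncoding RNAs give a side view of the same RNA class. Of 40 genes listed, 25 had a probe and 24 were tested. In the adult comparison 2 were called lower and none higher, with a median of -0.33 for the list. Over all probes tested 2.99% were called lower and 3.92% higher, with a median of -0.12. Neat1, the scaffold of nuclear paraspeckles, fell by 1.71 (SE 0.04), and all 6 of its probes were called. Malat1, a nuclear-speckle RNA, fell by 1.17 (SE 0.09), with 2 of 4 probes called. Both lie on chromosome 19 in the RefSeq table of assembly GRCm38.p6, as does the region with the deepest fall in mm9. Whether that region spans either gene was not looked up, since the table is of another build. In the fetal pools none of the 24 was called, where only 1.6% of all probes tested were called.

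In the fetal pools far fewer coordinate-named probes passed. Calls numbered 32 upward (0.689%) and 34 downward (0.732%) in the knockout. Over all probes tested 0.538% were called higher and 1.06% lower (1.6% in all). The coordinate-named probes had a median difference of 0.12, beside 0.04 for all probes. Where both fetal groups were measured, 3 of 3633 coordinate-named probes were higher (0.0826%) and 6 lower (0.165%), against 0.246% and 0.344% of 25617 probes of all kinds. With the brighter group well above background, 23 coordinate-named probes were higher and 30 lower. The same rule called 0.409% of all probes tested higher and 0.982% lower. The counts rest on single arrays: without the second knockout fetal array 8 were higher and 17 lower, and without the first, 14 were lower. The adult and fetal knockout comparisons use different arrays, and 4 coordinate-named probes were called lower in both, 1.97% of the adult falls and 11.8% of the fetal falls. One of them, in chr3:95754599-95754917 (R), was well above background on no adult array. Its adult processed signals were 11.3 and 15.9 in wild type and 6.52 and 5.90 in the knockout. Over all probes 23 were lower in both, 2.67% of the adult and 7.52% of the fetal falls. Opposite calls were found for 0 coordinate-named probes. Over all probes 15 were higher in the adult and lower in the fetal knockout, 1.33% of the adult rises. Another 7 went the other way, 0.812% of the adult falls. Higher in both were 0 coordinate-named probes and 11 of all probes (0.974% of the adult rises). With 59 adult rises and 203 adult falls among coordinate-named probes, a count of 0 is not read as a difference. Of the marker lists, 1 gene was called in the fetal knockout comparison: erythroid Hbb-bh1, with processed signals of 48423 and 46526 in wild type and 106935 and 98984 in the knockout (1.36). Its part in the fetal changes was not tested.

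Among regions with at least 3 tested probes, chr3:87757295-87774970 (F) alone had 2 or more calls in the fetal comparison, with 4 of 5 tested probes called lower. One read 2.07 and 2.25 in wild type and 0.96 and 0.90 in the knockout, a difference of -1.23 (SE 0.08, adjusted p 0.00049), 2 others differed by -1.09 and -1.01, and the last of the 4 passed the 2-fold limit narrowly. The fifth and brightest probe, at 6.40 and 6.36 in wild type and 6.57 and 6.54 in the knockout, was not called (0.17). In the adult samples the 5 differences ran from -0.35 to 0.02 and none was called. The deepest fetal fall measured in both groups was on 1 probe of chr5:34696192-34722842 (R), named after its values were seen. It read -0.03 and -0.08 in wild type and -3.78 and -3.68 in the knockout, -3.68 (SE 0.17, adjusted p 0.00013). The other 3 tested probes of that region differed by 0.18 to 0.36 and were not called.

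By the brightest probe of each region, only 3 regions measured in both fetal groups were called. chr5:120269342-120279542 (R) went from -2.93 and -2.97 in wild type to -1.66 and -1.78 in the knockout (1.23, SE 0.33, adjusted p 0.045), and chr2:172343878-172344212 (R) from -2.94 and -3.24 to -2.01 and -1.91 (1.13, SE 0.30, adjusted p 0.045). chr10:69679644-69682458 (F) fell, from -1.62 and -1.38 to -2.48 and -2.59 (-1.04, SE 0.20, adjusted p 0.015). All 3 were dim in the adult, and each call was lost without any 1 of the 4 fetal arrays and under quantile normalization. With slide row as a block, the calls for chr2:172343878-172344212 (R) and chr5:124687732-124689745 (F) were lost as well. The largest bounds were at least 2.23-fold, 2.18-fold, 1.89-fold and 1.82-fold higher in chr5:124687732-124689745 (F), chr13:61837025-61851225 (R), chrX:93154123-93164481 (F) and chr8:28345511-28361105 (R). The largest lower ones were at least 2.28-fold, 2.24-fold, 2.17-fold and 2.03-fold in chr8:49853937-49874087 (F), chr1:195332659-195335997 (R), chr13:99465269-99472596 (F) and chr6:134839791-134842085 (R). Of these 8, chr1:195332659-195335997 (R) kept its call without each array in turn and lost it under normexp background correction. Both of its tested probes were called lower. The wild-type arrays of the brighter one read -2.82 and -2.77 and the knockout arrays -5.89 and -6.01.

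The difference between the knockout effects, adult minus fetal, was tested as an interaction. It was called for 376 coordinate-named probes in the negative direction (8.09%) and 95 in the positive one (2.04%). Over all probes tested 4.67% were called negative and 4.93% positive (9.6% in all). The median of the coordinate-named probes was -0.31, beside -0.15 for all probes. Median scaling gave 135 negative and 95 positive calls, scaling on probes detected everywhere 219 and 144, and quantile normalization 278 and 123. Over all probes these gave 520 and 1308, 782 and 1997, and 949 and 1795. With normexp background correction 1.33% of coordinate-named probes were called negative, beside 1.46% of all probes. With no detection filter these shares were 2.01% and 2.16%. In both settings the negative share was thus near that of all probes. Without the first wild-type adult array the counts were 499 and 125, and without the second knockout fetal array 285 and 72. Among the 2149 probes measured in all 4 groups, 173 were called negative (8.05%) and 27 positive (1.26%), against 3.9% and 3.24% of the 18881 probes of all kinds measured there.

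In chr2:155269145-155303251 (F) all 4 tested probes were called positive, at 1.60 to 2.19; 2 of them had been called higher in the adult and none was called in the fetal comparison. Its brightest probe, called at neither stage, read 0.79 and 0.70 in wild-type and 1.56 and 1.59 in knockout adult liver, but 1.53 and 1.55 and 0.77 and 0.77 in the fetal pools. The adult difference was 0.83 and the fetal one -0.77 and their difference was 1.60 (SE 0.06, adjusted p 5.9e-06). One probe of chr14:67585234-67596823 (R) behaved likewise (0.96 and -0.71), while the other 6 tested probes of that region were not called at either stage. The positive list also held chr13:64381475-64415350 (F), at 1.43.

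Among brightest probes detected on all 8 arrays, negative values were led by chr19:5771425-5848475 (F) (-3.16, SE 0.07, adjusted p 8.8e-07), followed by chrX:34360500-34388500 (F) (-2.13), chr4:86267450-86277650 (F) (-2.01), chr1:71939741-71947891 (F) (-1.86) and chr10:72726649-72799726 (R) (-1.60). In chr1:71939741-71947891 (F) all 3 tested probes were called, at -1.86 to -1.06. Names that share ground could part: chr1:175654606-175672031 (R) had 4 of 5 probes called positive, and chr1:175660642-175671878 (R), which lies inside it and carries the same letter, had 2 of 3 called negative.

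Stage separated the coordinate-named probes more than genotype did. Between wild-type adult and fetal liver 1761 coordinate-named probes (37.9%) were called higher in the adult and 593 (12.8%) lower. Over all probes tested 28.9% were called higher and 23.7% lower (52.6% in all). Between the knockout samples the counts were 1148 (24.7%) and 721 (15.5%), beside 24.8% and 24.8% of all probes (49.5% in all). With the brighter group detected on both arrays, 1376 and 593 coordinate-named probes remained in wild type, and 985 and 705 in the knockout. The same rule called 25.9% and 23.7% of all probes tested in wild type, and 23.2% and 24.5% in the knockout. The median was 0.67 in wild type (0.14 for all probes) and 0.35 in the knockout (0.05 for all probes). The wild-type and knockout values use different arrays, but each shares its arrays with the knockout comparisons above. The split turns with the scaling. In wild type, median scaling gave 787 higher and 1222 lower, scaling on probes detected everywhere 1067 and 933, and quantile normalization 1282 and 934. Over all probes these were 4766 and 11513, 5827 and 9518, and 6621 and 8966. In the knockout coordinate-named probes gave 622 and 1221, 826 and 902, and 884 and 944, and all probes 4760 and 10740, 5752 and 8727, and 6184 and 8439. The median of all probes in wild type moved from 0.14 to -0.58, -0.30 and -0.18 with them. Of the 1761 higher calls in wild type, 180 were dim on both adult arrays; none of the lower ones was dim on both fetal arrays. The regions named for this comparison kept their calls under each of these scalings.

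Adult-high regions included chr1:71939741-71947891 (F), which read 2.72 and 2.67 in wild-type adult and -4.08 and -3.69 in wild-type fetal liver. The difference was 6.58 (SE 0.15, adjusted p 7.5e-09), and in the knockout pair it was 4.72. All 3 of its probes were called in both. On chromosome 16, 1 F region and 2 F regions that overlap it were all called higher in the adult. chr16:43635730-43639104 (F) had processed signals of 2130 and 2089 in the adult and 73.9 and 72.2 in the fetal wild type (6.16, SE 0.07, adjusted p 1.8e-10). chr16:43623581-43642715 (F) had 9 of 9 tested probes called, at 4.54 to 6.22 in wild type and 4.45 to 6.44 in the knockout. chr16:43623175-43624069 (F) had 3 of 3, at 5.09 to 5.27 in the knockout.

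The adult-high list also held chr9:78104935-78116974 (F), at 6.08 in wild type and 7.24 in the knockout. chr19:5771425-5848475 (F) was higher in the adult by 5.55 in wild type and by 2.40 in the knockout. chr19:36699712-36763966 (R) read 1.96 and 1.94 in wild-type adult against -4.17 and -3.02 in fetal liver (5.54). Neither knockout fetal array detected it, which gives at least 92-fold there. In the knockout alone, chr8:67542714-67561694 (F) entered the list, at 5.22. The largest bounds belong to 2 overlapping regions: chr6:31170350-31287353 (F) was at least 394-fold higher in adult than fetal wild type and at least 175-fold in the knockout, with 3 of 3 probes called. Its adult arrays read 4.21 and 4.14 in wild type and 3.47 and 3.51 in the knockout, and no fetal array was well above background for that probe. chr6:31233512-31241062 (F) followed with at least 326-fold and 151-fold, and chr17:32044823-32045974 (R) with at least 57.5-fold in wild type.

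Fetal-high regions measured at both stages were led by chr1:193815525-193825775 (F), at 0.38 and 0.37 in wild-type adult and 4.85 and 4.81 in wild-type fetal liver (-4.46, SE 0.03, adjusted p 3.7e-11). The knockout pair differed by -3.55. chr17:22420025-22457650 (F) differed by -3.92 and -4.63, on 1 probe; the other tested probe of the region was called higher in the wild-type adult, at 1.40. A short region, chr6:116123643-116124550 (F), read 8.20 and 8.24 in the wild-type and 8.28 and 8.28 in the knockout fetal pool, against 5.08 and 5.03 in wild-type adult liver (-3.17, SE 0.04, adjusted p 1.9e-10). All 3 of its probes were called at both genotypes. chr4:155585650-155608700 (R), chr17:35080914-35090009 (F) and, in the knockout, chr15:8463685-8494960 (F) lay between -3.38 and -3.28 in the comparisons that named them.

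Fetal-only detection gave the bounds. chr12:32781477-32808567 (R) was at least 63.9-fold higher in the fetal than the adult wild type and at least 88.9-fold in the knockout. Its 3 probes agreed, and no adult array was well above background for them. chr17:34018371-34019394 (R) followed with at least 45.8-fold and 79-fold, again on 3 of 3 probes. chr12:110894095-110899517 (F) reached at least 42-fold and 46.9-fold on 2 of 2. None of these 3 was called in either knockout comparison.

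Named noncoding RNAs gave fetal-high values as well. H19, an imprinted RNA of fetal liver, was at least 1762-fold higher in the wild-type fetal pool. Meg3 and Mirg, of an imprinted cluster on chromosome 12, differed by -6.13 (SE 0.04) and -6.66 (SE 0.79) in adult minus fetal wild type. Mirg rests on uneven wild-type adult duplicates, whose processed signals were 5.68 and 44.1. Mir17hg, the host transcript of a cell-growth microRNA cluster on chromosome 14, differed by -3.05 (SE 0.08). The region chr14:115443612-115445950 (F), also on chromosome 14, differed by -3.15 (SE 0.08, adjusted p 1.6e-08) in wild type and by -3.84 in the knockout. Whether it or the chromosome 12 regions lie at these genes was not looked up, since the RefSeq table is of another build. Over the whole list 4 genes were called higher and 12 lower in wild-type adult liver, and 3 and 14 in the knockout. Of all probes tested, 28.9% were called higher and 23.7% lower in wild type, and 24.8% and 24.8% in the knockout. Hotair, 1 of the 4, had processed signals of 23.1 and 25.6 in the adult and 30.8 and 22.4 in the fetal wild type (1.20). No adult array was well above background for it.

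The letters F and R were designed for the same coordinates in 1067 regions. Both had a tested probe in 422 of them, only F in 204, only R in 230 and neither in 211. In the adult knockout comparison the 422 had calls under F alone in 38, under R alone in 37 and under both in 5. Of those 5, 4 were lower under both letters and 1 went opposite ways. In the fetal comparison the counts were 15, 12 and 1. Between wild-type adult and fetal liver both letters had a call in 205. Of these, 155 had higher calls under both letters, 17 had lower calls under both, and 58 held calls of opposite sign; a region with several calls can count more than once. Within one letter, the tested probes of regions with at least 3 spanned a median of 0.64 in the adult and 0.40 in the fetal knockout comparison, and 1.08 between wild-type stages.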

How the data were processed

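Per the labels, total RNA (200 ng) was labelled with Cy3 for 1-colour arrays. Per the file headers, Agilent Feature Extraction 10.7.3.1 gave each spot a processed signal, a median signal and a local background, all intensity values on a linear scale, with flags. The authors' deposited value table also holds intensity values; its columns had near-equal quantiles, no source used here gives its scaling step, and it served as an alternative only. Control spots and outlier flags were left out, no spot was saturated, and spots of a probe were averaged. Python 3.11.15, R 4.3.3 and limma 3.58.1 (lmFit, eBayes with an intensity trend, all 8 arrays in 1 fit of 4 groups, Benjamini-Hochberg adjustment over 28819 probes) were used; the fit was tested on simulated data. Precision is limited by 2 arrays per group.

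Each region was represented by its brightest tested probe over the 8 arrays. In each knockout comparison up to 8 called rises and 8 falls (by size, among probes that both groups detected) were named, with 4 bounds in each direction, in each stage comparison 6 and 3, for the interaction 5 each way over probes measured on all 8 arrays. Of the 628 regions with at least 3 tested probes, those with 2 or more calls in a knockout comparison were counted, and the ones described among them were picked after their values were seen. Regions, lists and tests were chosen with earlier results of these data known. Scaling, background correction, filter, trend, slide row, the deposited table and single arrays were varied.

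The labels carry no replicate numbers. Slide row did not pair arrays: correlations of the duplicates' deviations between groups ran from -0.15 to 0.06.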

Additional observations from a re-analysis of the deposited data

Results flagged for a closer look

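The knockout effect differed between adult and fetal liver for the brightest probe of 26 named regions, by limma's interaction test. These regions had been named as the largest calls or bounds of a knockout comparison or as the largest calls of the interaction itself. The list is thus preselected and adds no support. Over all probes tested 9.6% were called for the interaction. The values are adult minus fetal log2 differences. Among probes detected on all 8 arrays, a positive difference was found for chr4:44181997-44249172 (F) (1.79, adjusted p 3.6e-05), chr8:19682258-19700836 (F) (1.77, adjusted p 0.00073), chr14:67585234-67596823 (R) (1.67, adjusted p 6.1e-05) and chr2:155269145-155303251 (F) (1.60, adjusted p 5.9e-06). Smaller positive values belonged to chr13:64381475-64415350 (F) (1.43, adjusted p 0.0011), chr1:175653557-175671940 (R) (1.17, adjusted p 0.00041) and chr9:78104935-78116974 (F) (1.16, adjusted p 0.0061). The negative ones were chr19:5771425-5848475 (F) (-3.16, adjusted p 8.8e-07), chrX:34360500-34388500 (F) (-2.13, adjusted p 0.00045), chr4:86267450-86277650 (F) (-2.01, adjusted p 0.00065), chr1:71939741-71947891 (F) (-1.86, adjusted p 0.00041), chr10:72726649-72799726 (R) (-1.60, adjusted p 0.00015) and chr11:95561419-95574068 (R) (-1.55, adjusted p 0.00027). Less negative were chr13:65610375-65634500 (F) (-1.50, adjusted p 0.034), chr14:21460230-21461364 (F) (-1.50, adjusted p 2.5e-05) and chr6:146493273-146493932 (R) (-1.18, adjusted p 0.0061). Where any group was not detected on both arrays, the fitted value depends on a signal near background and is no bound: this holds for the positive values of chr8:35143801-35144482 (F) (5.23, adjusted p 0.00039), chr5:15146475-15170100 (F) (4.24, adjusted p 0.00016), chr13:99465269-99472596 (F) (3.46, adjusted p 0.04), chr1:195332659-195335997 (R) (2.93, adjusted p 0.0046) and chr10:92547995-92556102 (F) (2.41, adjusted p 0.0029). It holds likewise for the negative values of chr19:19005109-19008657 (R) (-3.38, adjusted p 0.0036), chr19:54011403-54019143 (F) (-2.45, adjusted p 0.0021), chr5:124687732-124689745 (F) (-2.02, adjusted p 0.041), chr8:28345511-28361105 (R) (-1.94, adjusted p 0.015) and chr5:120269342-120279542 (R) (-1.93, adjusted p 0.013).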

How the results depend on the processing

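No named result changed direction under any alternative that gave it a value. Of 77 named results, calls were lost by 26 under normexp background correction with an offset of 50, by 11 with no filter, by 8 each under quantile normalization, the authors' deposited table and eBayes without a trend, by 3 under median scaling, by 2 with scaling on probes detected everywhere, by 2 with slide row as a replicate block, and by none of the 45 left when probes had to be detected on all 8 arrays. Leaving out 1 array ended 2 to 10 of them.

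Counts are given as higher then lower. Adult knockout: normexp 8 and 14 (0.172% and 0.301%, beside 1.22% and 0.684% of all probes). Detection on all arrays gave 10 and 64 (0.465% and 2.98%, beside 2.49% and 1.95%). The deposited table gave 134 higher (2.88%, beside 5.6%). Higher calls were 130 (median), 101 (detected probes) and 134 (quantile). With the brighter group detected, a rule added after seeing the data, they were 32 and 122. Fetal knockout: quantile 21 and 20 (0.452% and 0.43%, beside 0.389% and 0.788% of all probes). Normexp gave 1 and 2 (0.0215% and 0.043%, beside 0.139% and 0.18%). Deposited values gave 21 and 20 (0.452% and 0.43%, beside 0.385% and 0.788%). No trend gave 21 and 22 (0.452% and 0.473%, beside 0.399% and 0.84%). Arrays averaged without a test gave 77 and 92 (1.66% and 1.98%, beside 1.03% and 1.87%). No filter gave 62 higher (0.383%, beside 0.366%). Detection on all arrays gave 4 lower and, by limma, 0 higher, with 617 at an unadjusted p under 0.05. Wild-type adult against fetal: median 787 and 1222, detected probes 1067 and 933, detection on all arrays 1028 and 147; no filter gave 9121 higher; lower calls were 934 (quantile), 934 (deposited table) and 175 (normexp). Knockout adult against fetal: median 622 and 1221, normexp 500 and 240 (10.8% and 5.16%, beside 16.7% and 15.8% of all probes). Detection on all arrays gave 650 and 194 (30.2% and 9.03%, beside 27.9% and 18.5%). No filter gave 7150 higher (44.2%, beside 37.9%). In wild type the matching shares were 47.8% and 6.84% for detection on all arrays, beside 32.7% and 16.8%. They were 56.3% higher with no filter, beside 44.9%, and 3.77% lower under normexp, beside 15.1%. Difference of effects: detected probes 144 and 219 (3.1% and 4.71%, beside 6.93% and 2.71% of all probes). Normexp gave 15 and 62 (0.323% and 1.33%, beside 1.45% and 1.46%). Detection on all arrays gave 27 and 178 (1.26% and 8.28%, beside 3.25% and 3.97%). With arrays averaged there were 180 and 594 (3.87% and 12.8%, beside 6.41% and 6.94%). Median scaling gave 135 lower (2.91%, beside 1.8%). Fewer probes are tested under detection on all arrays, and more under no filter; for the other settings the cause was not tested.

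Leaving out 1 array gave 60 to 111 higher and 186 to 370 lower calls in the adult knockout comparison, 8 to 41 and 14 to 37 in the fetal one, 1605 to 1824 and 553 to 635 between wild-type stages, 1085 to 1157 and 665 to 747 between knockout stages, and 72 to 125 and 285 to 499 for the difference. With slide row as a replicate block, a pairing that the labels do not give, the counts were 63 and 209, 27 and 32, 1758 and 590, 1155 and 719, and 91 and 369. Signals near background limit all counts on these dim probes.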
